A study of Mus musculus with 34 samples.

Results

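Mouse Neuro-2a (N2A) neuroblastoma cells include most internal exons of their mRNAs almost always, but a class of exons is included in only a few percent of transcripts, and the data were examined for compounds that raised the inclusion of these exons. Low-inclusion exons were chosen by their DMSO values, as exons longer than 50 nt whose mean percent spliced in (PSI, the share of a gene's transcripts that contain the exon) over the 3 DMSO libraries was above 0 and at most 5, with sufficient junction coverage in each of those libraries. The rule found 3767 exons in 2754 genes, among 55115 exons over 50 nt covered in all DMSO libraries, 160750 exon events and 401633 splicing events in all. Because the DMSO values chose the exons, every difference from DMSO below describes these libraries and was not tested, and tests were run only between compounds, whose libraries the rule did not use. PSI has a floor at 0, so an exon of this class could gain 10 PSI but could not lose 10 PSI.

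Splicing and expression were measured by polyA+ RNA-seq of N2A cells after 24 h with compounds from a screen for activators and inhibitors of neuronal microexons. There were 34 libraries, of which 3 (A, B and C) received vehicle alone, 0.4% DMSO. Among 27 compounds, 4 inhibitors of histone deacetylases (HDACs) had 2 libraries each (A and B) and the other 23 had 1. The study classes 17 compounds as microexon activators and 10 as inhibitors. The HDAC inhibitors were Vorinostat (2.5 µM), CI-994 (5 µM), BRD6688 (10 µM) and BRD4884 (10 µM). Doses are those of the study's list of compounds, from which another part of the study departs for Vorinostat with a slightly lower dose. Further activators, of benzenesulfonamide type by the study's classes, were BTB12021 (20 µM), RDR00572 (2.5 µM), S02045 (5 µM) and RH01954 (2.5 µM). Kinase inhibitors that act on or upstream of the MAPK pathway were Trametinib (1 µM, against MEK), SCH-772984 (2 µM, against ERK), Crenolanib (2 µM, against PDGF receptors and FLT3) and GNF-5837 (500 nM, against TRK receptors). A set of 5 microexon inhibitors, formed with earlier splicing results of these libraries known, comprised AW00693 (5 µM) and T5635931, T5758020, T5963258 and T5985871 (each 6.7 µM). The remaining activators were A-443654 (250 nM, an AKT inhibitor), NVP-AEW-541 (1 µM, an IGF1 receptor inhibitor), BTB13120 (625 nM), BTBS00065 (2.5 µM) and SEW06315 (2.5 µM), and the remaining inhibitors were MK-1775 (2 µM, a WEE1 inhibitor), 5-azacytidine (5 µM, a DNA methyltransferase inhibitor), SPB00858 (20 µM), JFD00822 (5 µM) and OICR.24K.Dissimilar_18_P14 (6.7 µM, a ChemBridge compound). Doses differed between and within the sets. The study calls the 2 libraries of each HDAC inhibitor biological replicates, but does not say whether they came from separate cultures.

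An internal exon is included when the spliceosome recognises its 3′ and 5′ splice sites and joins it to both neighbours, and exons with weak sites or bound repressors are mostly skipped. Some rarely included exons keep the reading frame and add a stretch of protein in particular cell types, as neurons do for many cytoskeletal and synaptic proteins. Others carry a stop codon or shift the frame, so that their inclusion marks the mRNA for nonsense-mediated decay (NMD), and splicing regulators such as SR proteins and hnRNPs limit their own amounts with such poison exons.

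The 34 libraries held 33489970 to 75978445 reads on exon events, with a median of 130 to 323 junction reads per low-inclusion exon. N2A identity was checked by expression in RPKM. In DMSO the sympathetic and neuroblast genes Hand2 (248), Stmn2 (175), Elavl4 (131) and Chga (94.8) were high, whereas Th was at 1.57 and the neurofilament genes Nefl and Nefm at 0.01 each. Markers of glial, endothelial and immune cells were at most 0.79.

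Sequences of 10 exons on which the results turn are given below from GENCODE vM21 transcripts on GRCm38, since they show the outcomes that inclusion can have. The first 5 lie in coding sequence and keep the frame, and capitals mark their last 3 bases, which adjoin the 5′ splice site. Exons of Tjp1 (chr7:65314093-65314332, minus strand), Myo5a (chr9:75196126-75196200, plus), Tsc2 (chr17:24601389-24601457, minus), Mink1 (chr11:70606631-70606717, plus) and Unc5a (chr13:54997193-54997360, plus) are printed in full.
Tjp1: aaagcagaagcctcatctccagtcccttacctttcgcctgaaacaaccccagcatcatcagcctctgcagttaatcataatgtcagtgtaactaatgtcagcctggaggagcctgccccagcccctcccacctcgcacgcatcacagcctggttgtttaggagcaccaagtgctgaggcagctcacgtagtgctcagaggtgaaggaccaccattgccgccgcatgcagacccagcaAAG
Myo5a: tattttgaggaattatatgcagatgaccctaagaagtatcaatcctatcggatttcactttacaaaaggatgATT
Tsc2: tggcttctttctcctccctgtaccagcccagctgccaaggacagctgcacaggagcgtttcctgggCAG
Mink1: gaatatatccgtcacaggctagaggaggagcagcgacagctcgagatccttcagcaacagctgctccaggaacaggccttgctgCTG
Unc5a: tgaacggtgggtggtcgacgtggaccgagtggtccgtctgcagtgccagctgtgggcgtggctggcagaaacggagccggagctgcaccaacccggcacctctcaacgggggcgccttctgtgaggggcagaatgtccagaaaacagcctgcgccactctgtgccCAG
The next 5 belong only to annotated NMD transcripts and are printed from their first base to the stop codon that the annotated reading frame meets inside the exon, with the stop in capitals. They lie in Rbm7 (chr9:48494364-48494387, minus), Ptgr2 (chr12:84296228-84296242, plus), Peg3 (chr7:6712956-6713012, minus), Hnrnpl (chr7:28817335-28817393, plus) and Akap8l (chr17:32335124-32335170, minus).
Rbm7: tatttgaggcagagagccataTAG
Ptgr2: ctcctgaccactTGA
Peg3: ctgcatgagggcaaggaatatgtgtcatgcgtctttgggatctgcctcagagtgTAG
Hnrnpl: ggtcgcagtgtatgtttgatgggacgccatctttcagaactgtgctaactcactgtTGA
Akap8l: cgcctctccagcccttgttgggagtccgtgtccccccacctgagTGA
The stop begins at base 22 of the Rbm7 exon and at base 13 of the Ptgr2 exon.

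About 33.3% of the annotated low-inclusion exons were known only from NMD transcripts, where 0.942% of other annotated exons were. Of the 3767 exons, 1250 (33.2%) matched a GENCODE exon by gene, exon length and intron lengths, and the rest were not matched. Among the matched exons, 416 occurred only in NMD transcripts, 285 (22.8%) were coding, 62 were partly coding, 193 lay in untranslated regions and 294 in non-coding transcripts. Of the other covered exons over 50 nt, 45851 of 51348 matched, of which 43106 (94.0%) were coding and 432 NMD only. In 334 of the 416 NMD exons the frame met a stop inside the exon, and 123 of those 334 had a length divisible by 3. Lengths divisible by 3 made up 38.4% of all low-inclusion exons and 39.6% of other covered exons. The low matched share means that the annotation describes a minority of the class.

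**Figure D1:**
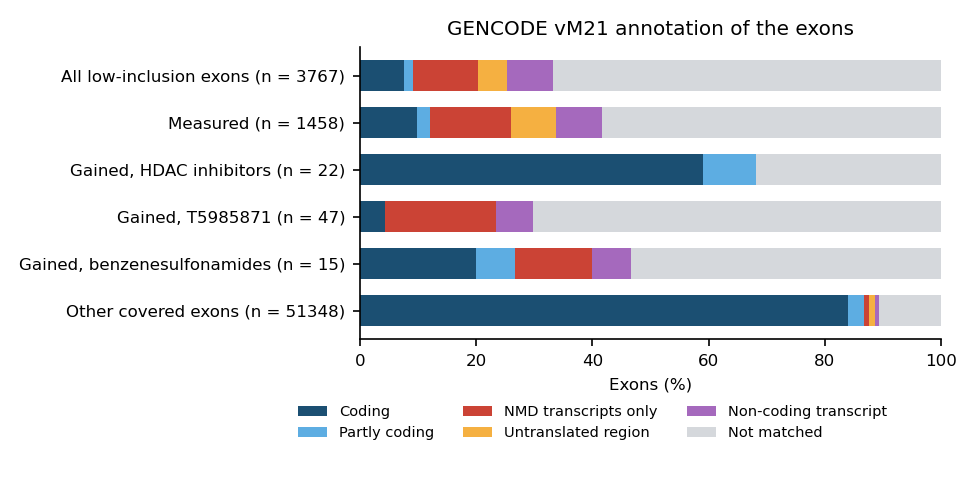
Share of exons (%, horizontal axis) in each GENCODE vM21 annotation class, for all low-inclusion exons, those measured, those gained with any HDAC inhibitor, with T5985871 or with any benzenesulfonamide, and other covered exons over 50 nt. Coding sequence fills most of the bar for the 22 exons gained with HDAC inhibitors, and NMD-only exons are the largest matched class of the 47 gained with T5985871.

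Inclusion in DMSO was low throughout the class, with a median of the mean PSI of 0.823 (quartiles 0.327 and 1.883), a median SD over the 3 libraries of 0.458 and a median of 5.3 inclusion reads summed over them. Just inside the limit of 5 PSI were exons of Slc16a6 and Fam76b (both 4.9933) and just outside it exons of Tbc1d5 (5.0033) and Srsf6 (5.0067). The lowest values above 0 were exons of Psmd4 and Actb (both 0.0067), and the shortest exon was that of Cad (51 nt). A further 748 covered exons stood at 0 PSI in all DMSO libraries and were not in the class.

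A gain was called where the mean PSI of a compound's libraries exceeded the DMSO mean by at least 10 with a posterior probability above 0.95 from the reads. Both conditions also had to pass coverage and read balance filters in at least 0.5 of their libraries, balance being an even spread of inclusion reads over the exon's 2 junctions. Of the 3767 exons, 1458 passed in DMSO and were measured in at least 1 compound, and 137 were measured in every compound. The other 2309 failed the balance filter in DMSO, and 2066 of them had fewer than 10 DMSO inclusion reads. In all, 114 exons of 113 genes gained in at least 1 compound, and 294 did so without the balance filter, under which 0.312% to 1.13% of all exons over 50 nt gained per compound. The 114 are thus the gains among exons that the filters let through. Sparse inclusion reads in a compound library can also fail the filter, so the exons measured with a compound depend in part on their inclusion there.

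T5985871 stood apart from every other compound. It gained 47 of 984 measured low-inclusion exons (4.78%), where 0.798% of all exons over 50 nt gained. Without the balance filter it gained 114, where 1.05% of all exons gained. The median number of low-inclusion exons measured with the 5 microexon inhibitors was then 3753. MK-1775 followed with 16 of 1120 (1.43%, all exons 0.336%), A-443654 with 14 of 1084 (1.29%, all exons 0.566%), CI-994 with 13 of 1065 (1.22%, all exons 1.03%) and Vorinostat with 10 of 1083 (0.923%, all exons 0.976%). The median over the 27 compounds was 4 exons. For comparison, when each DMSO library was set against the other 2, 0.363% to 0.413% of all exons over 50 nt passed the same call. Since the class was chosen for low DMSO values, its shares are given beside those of all exons and nothing is read from the difference. Most exons over 50 nt are included almost always and, unlike this class, have no room to gain 10 PSI. Exons with a DMSO mean PSI of 10 to 90 gained more often than the class with these compounds. Their shares were 12.1% with T5985871 (249 of 2053), 4.52% with MK-1775, 9.88% with A-443654 and 18.6% each with CI-994 and Vorinostat.

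Within the HDAC inhibitors the other counts were 4 of 1125 exons for BRD4884 (all exons 0.707%) and 0 of 1154 for BRD6688 (all exons 0.654%). For the benzenesulfonamides they were 8 of 810 for BTB12021 (all exons 0.652%), 7 of 836 for RDR00572 (0.52%), 5 of 916 for S02045 (0.494%) and 1 of 925 for RH01954 (0.356%). RDR00572 and RH01954 were given at the same dose, each with 1 library. The kinase inhibitors of the MAPK pathway gained few, with 4 of 783 for GNF-5837 (all exons 0.76%), 2 of 933 for Crenolanib (0.642%), 2 of 1038 for SCH-772984 (0.395%) and 1 of 1016 for Trametinib (0.506%).

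Of the microexon inhibitors besides T5985871, T5758020 gained 5 of 1125 exons (all exons 0.39%), T5963258 4 of 1037 (0.369%), AW00693 4 of 1125 (0.417%) and T5635931 3 of 1106 (0.377%). These 3 T compounds shared the 6.7 µM dose of T5985871 and had 1 library each. Gains with the remaining compounds were 5 of 927 for BTB13120 (all exons 0.458%), 4 of 943 for NVP-AEW-541 (0.636%), 4 of 1058 for JFD00822 (0.264%), 2 of 954 for 5-azacytidine (0.364%) and 1 of 1017 for BTBS00065 (0.595%). SEW06315, SPB00858 and OICR.24K.Dissimilar_18_P14 gained none of 953, 949 and 985 exons, with all-exon shares of 0.444%, 0.314% and 0.434%.

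**Figure D2:**
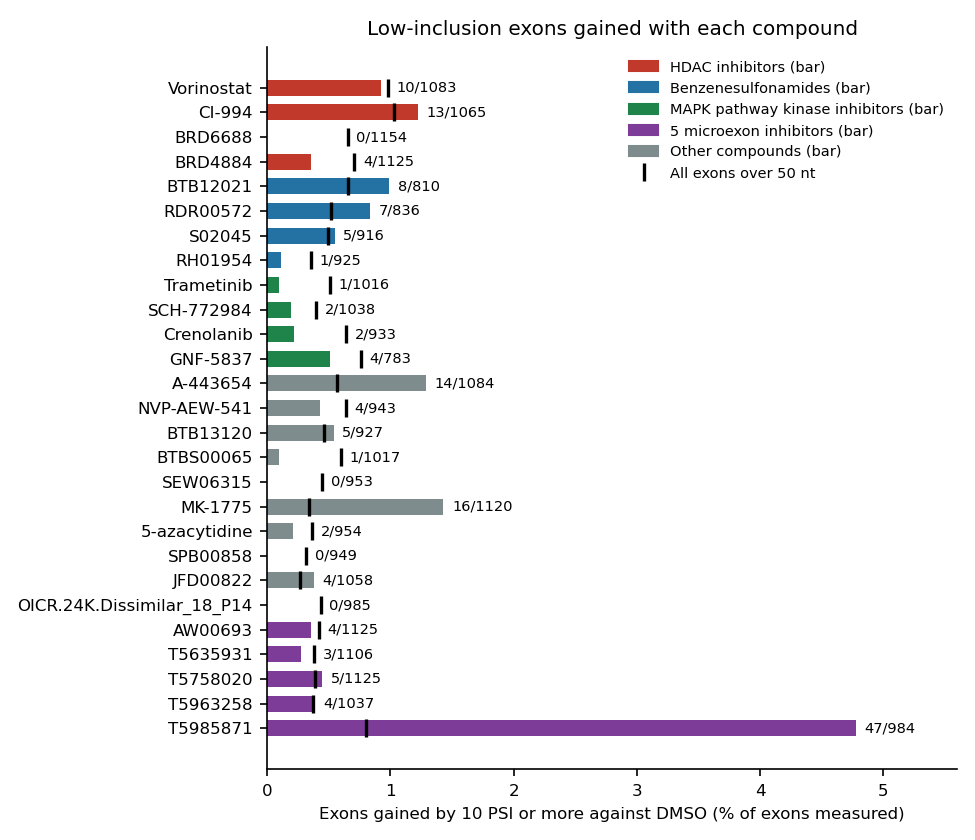
Bars show the share of measured low-inclusion exons that gained at least 10 PSI against DMSO with each compound (%, horizontal axis), coloured by compound set, with gained and measured exons as numbers, and ticks show the share over all exons longer than 50 nt. The bar of T5985871 (47 of 984) is the longest, and those of BRD6688, SEW06315, SPB00858 and OICR.24K.Dissimilar_18_P14 are at 0.

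The level of the whole class was compared without the balance filter over the 3429 exons covered in every library. Its mean PSI was 1.234, 1.223 and 1.209 in the DMSO libraries and 2.775 with T5985871. The next levels were 2.097 with MK-1775, 1.931 with T5758020, 1.92 with AW00693, 1.753 with A-443654 and 1.741 with T5635931, and 4 of the 5 highest libraries were of compounds that the study classes as microexon inhibitors. The lowest was SPB00858 with 1.195. Exons at 10 PSI or more numbered 0, 0 and 1 in DMSO, 170 with T5985871, 61 with MK-1775, 59 and 60 in the CI-994 libraries, 51 and 60 in the Vorinostat libraries and 54 with A-443654. The median PSI of the class was 0.65 to 0.73 in the DMSO libraries, 0.73 and 0.55 with CI-994, 0.73 and 0.78 with Vorinostat and 1.49 with T5985871.

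**Figure D3:**
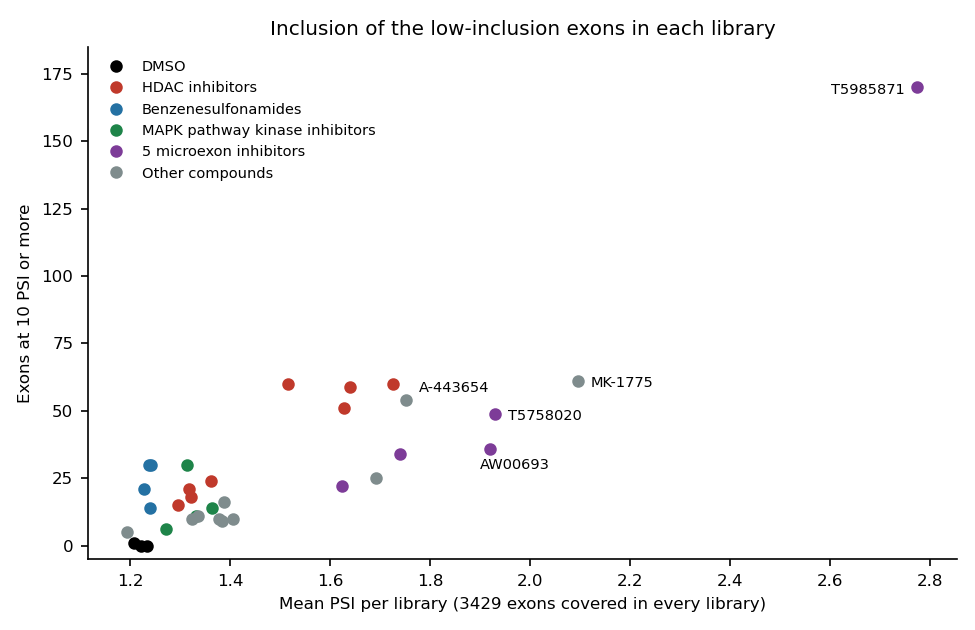
Each point is a library, placed by its mean PSI over the 3429 low-inclusion exons covered in every library (horizontal axis) and by the number of those exons at 10 PSI or more (vertical axis). T5985871 lies alone at 2.775 PSI and 170 exons, and the DMSO libraries lie at the lower left with 0 or 1 exon.

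Thap2, Rbm7, Cdc7, Mdm4 and 4933427D14Rik held exons gained with T5985871. The largest gain of any compound was a 136 nt exon of Thap2, a THAP-type zinc finger gene (chr10:114820807-114820942, mm9). Its PSI was 1.19, 5.56 and 4.35 in DMSO and 34.12 with T5985871, with a 95% Wilson interval of 22.5% to 46.3% from 57 reads that covers counting error only. The next highest compound, T5635931, stood at 9.8. Rbm7 encodes the RNA-binding subunit of the nuclear exosome targeting complex, and its NMD exon had a PSI of 2.94, 3.25 and 3.74 in DMSO and 25.22 with T5985871 (22.7% to 28%, 1057 reads). AW00693, T5758020, T5635931 and T5963258 gave 10.47, 10.3, 9.06 and 7.19, all above the 3 DMSO libraries. Cdc7, the kinase that fires replication origins, had a 106 nt exon at 1.6, 0.84 and 1.31 in DMSO, 25.59 with T5985871, 13.02 with AW00693 and 12.42 with T5758020. For Mdm4, an inhibitor of p53, a 198 nt exon was at 1.26, 1.0 and 0.0 in DMSO and at 14.25 with T5985871 (8.84% to 23.7%, 88 reads), and its next value was 4.98 with 5-azacytidine. Among uncharacterised genes, an 80 nt exon of 4933427D14Rik read 3.42, 4.0 and 3.95 in DMSO, 30.16 with T5985871 from 41 reads and 18.18 with BTB12021. The median PSI of all 984 exons measured with T5985871 was 3.01, against 1.772 in DMSO, with a median difference of 1.06 PSI.

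Of the 47 exons gained with T5985871, 14 matched GENCODE. Of these 14, 9 were NMD exons, all with a stop codon inside the exon, 2 were coding and 3 lay in non-coding transcripts. Without the balance filter, 31 of the 114 gained exons matched. Of those 31, 15 were NMD only, 13 of them with a stop inside the exon, and 8 were coding. Lengths divisible by 3 were found for 18 of the 47 (38.3%). Of the 22 exons gained with any HDAC inhibitor 15 matched, 13 of them coding, 2 partly coding and 0 NMD only, and 17 of the 22 (77.3%) had a length divisible by 3. Benzenesulfonamides gained 15 exons, of which 7 matched (3 coding, 1 partly coding, 2 NMD only and 1 non-coding) and 6 were divisible by 3. Over all 1458 measured exons, 608 matched, 143 of them coding and 202 NMD only, and 591 (40.5%) were divisible by 3. The difference of these shares between compounds was not tested.

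Exons of Unc5a and Hnrnpl were among those gained with MK-1775. Unc5a is a receptor for the axon guidance cue netrin, and its 168 nt coding exon, printed above, read 4.29, 3.03 and 5.88 in DMSO and 32.32 with MK-1775 (24.7% to 40.5%, 131 reads). A-443654 gave the next highest value, 13.64, in a library that failed the balance filter for that exon. The NMD exon of Hnrnpl, a splicing regulator, passed the limit of 10 PSI narrowly, with a gain of 10.8 PSI. It read 4.06, 4.29 and 4.54 in DMSO, 15.08 with MK-1775 (13.4% to 16.9%, 1539 reads) and 14.21 with T5985871. No other compound reached 10 PSI there, AW00693 being next with 9.22.

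With A-443654, a 143 nt exon of the uncharacterised gene 2610318N02Rik stood at 25.31 (22.7% to 28.1%, 968 reads) after 4.09, 3.35 and 6.48 in DMSO. Alkbh3 repairs alkylated nucleic acids, and its 151 nt exon rested on fewer reads, with 5.21, 5.34 and 0.85 in DMSO, 27.97 with A-443654 (64 reads) and 17.57 with T5985871 (54 reads). Zfp661, a zinc finger gene, had a 217 nt exon at 3.2, 1.37 and 6.09 in DMSO, 26.57 with A-443654 and 26.19 with BTB13120. The 84 nt exon of Cacna1b, the pore subunit of N-type calcium channels, stood at 19.48 with A-443654, but the DMSO libraries themselves spread from 1.53 to 9.18. GNF-5837 gave the highest value of a 116 nt exon of Fbxo8, a substrate receptor of ubiquitin ligases (1.27, 1.88 and 4.49 in DMSO, 13.38 with GNF-5837).

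HDAC inhibitor gains could be followed in a second library of the same compound. Of 13 exons that gained 10 PSI in CI-994 A, 12 were covered in CI-994 B and 9 of those stood at 10 PSI or more there, with a median of 13.56. Picked in B, 9 of 18 reached 10 PSI in A (median 9.93). Vorinostat gave 7 of 12 in both directions (medians 11.5 and 10.4). For BRD4884 the numbers were 2 of 4 and 3 of 4, and for BRD6688 they were 0 of 2 in both directions. The second library had no part in picking the exons, while both share the DMSO libraries.

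The largest CI-994 gains were a pair of exons of the same gene. Dst encodes a spectraplakin that links cytoskeletal filaments, and its 150 nt exon (chr1:34250237-34250386, mm9) read 5.66, 1.64 and 3.39 in DMSO and 28.85 and 25.3 with CI-994. It was at 14.09 and 16.98 with BRD4884, 10.83 and 16.21 with Vorinostat and 10.99 and 11.98 with BRD6688. Besides CI-994 and BRD4884, this exon was called gained with NVP-AEW-541 (13.89) and T5635931 (13.99), but not with Vorinostat or BRD6688. Of 27 compounds, 12 stood at 10 PSI or more. The neighbouring 5292 nt coding exon of Dst went with the 150 nt exon, at 26.08 and 21.6 with CI-994 after 5.77, 2.07 and 1.76 in DMSO. The 123 nt exon of Nsun5, an RNA methyltransferase of the ribosome, gained with Vorinostat on library B alone (29.29 from 28 reads), since library A, at 8.94, failed the balance filter.

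Compound sets were then compared with one another, with no DMSO library in the fit. Each compound gave 1 value per exon, the mean over its passing libraries, and limma was fitted to the arcsine square root of PSI over all exons over 50 nt, with Benjamini-Hochberg adjusted p below 0.05 as the call. A compound whose libraries failed the filters for an exon did not enter that exon's means or fit, and for the called exons named here 3 to 5 compounds of a set and 18 to 23 others did. The fit had 1 group for each set and 1 for the remaining compounds, all sharing 1 spread. Each set was contrasted with the mean of the other groups, weighted by number of compounds. The p-values therefore rest on the spread between compounds within groups, whereas the SDs printed for other compounds span the other groups. Means over both libraries of an HDAC inhibitor had no added weight. The other compounds of a contrast include the other sets, so calls of the same exon in several contrasts are not independent. HDAC inhibitors had 19 higher and 1 lower of 611 low-inclusion exons tested, where 0.551% of 39756 exons were higher and 0.322% lower. The benzenesulfonamides had 18 higher and 40 lower of 563 (all exons 0.408% and 2.31%). The 5 microexon inhibitors had 61 higher and 5 lower of 555 (all exons 0.383% and 1.28%). That set was formed with earlier splicing results of these libraries known, so its p-values, here and below, are not an independent test of it. MAPK pathway kinase inhibitors had 0 in either direction of 599 (all exons 0.0101% each way), with 31 higher and 49 lower at an unadjusted p below 0.05.

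These differences were small for most exons. The median difference of mean PSI, set minus other compounds, was 0.03 for HDAC inhibitors, -0.47 for benzenesulfonamides, -0.22 for MAPK pathway kinase inhibitors and 0.24 for the 5 microexon inhibitors over the low-inclusion exons tested. Over all exons tested it was 0.10, 0.03, 0.11 and -0.01 in the same order. Among exons called higher, the median difference was 5.45 PSI for HDAC inhibitors, 3.70 for benzenesulfonamides and 2.84 for the microexon inhibitors, and 10, 7 and 11 exons were higher by at least 5 PSI. No exon was lower by 5 PSI or more. Single compounds carried part of these counts. Without Vorinostat 8 exons were higher in the HDAC contrast and without CI-994 9, without BTB12021 10 were higher for the benzenesulfonamides, and without T5985871 29 and without AW00693 40 were higher for the microexon inhibitors. The benzenesulfonamide count of lower exons became 17 without BTB12021, 18 without RDR00572 and 21 without S02045. Without the balance filter the exons called higher numbered 40 for HDAC inhibitors, 46 for benzenesulfonamides and 260 for the microexon inhibitors, of all exons 0.627%, 0.531% and 0.953%, and those called lower numbered 4, 147 and 14 (all exons 0.356%, 2.66% and 1.54%). The MAPK pathway set then had 0 higher and 0 lower (all exons 0.0134% each way), with 96 higher and 256 lower at an unadjusted p below 0.05.

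**Figure D4:**
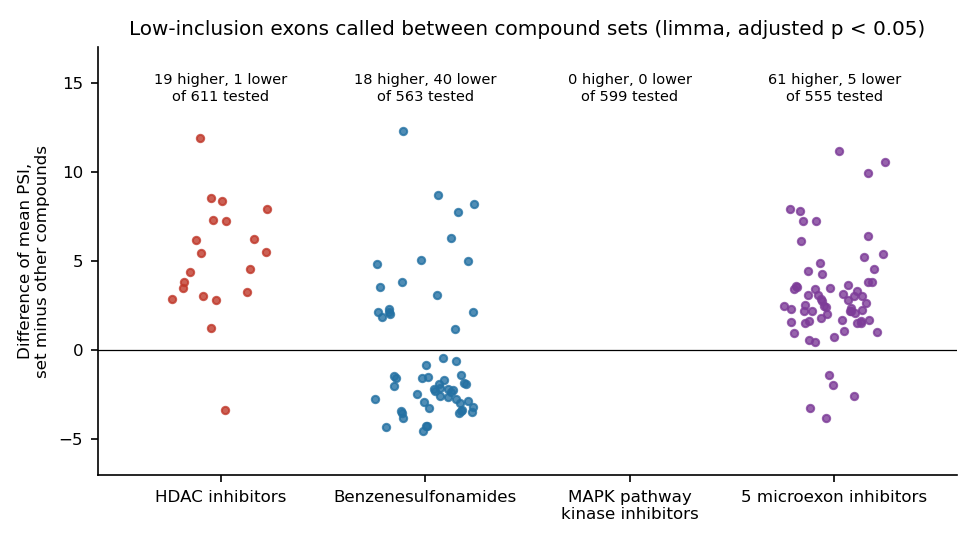
Each point is a low-inclusion exon called between a compound set and the other compounds (limma, adjusted p below 0.05), placed by its difference of mean PSI, set minus other compounds (vertical axis), with horizontal scatter for visibility only. Higher exons reach 11.91, 12.31 and 11.18 PSI for the HDAC inhibitors, benzenesulfonamides and 5 microexon inhibitors, and the MAPK pathway set has none.

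Sirt7, Tjp1, Myo5a, Akap8l and Tsc2 held the leading exons that were higher with HDAC inhibitors than with other compounds. Tjp1 encodes ZO-1, the scaffold of tight junctions, and its 240 nt coding exon read 3.46, 3.36 and 2.49 in DMSO. It stood at 17.39 and 18.22 with CI-994, 15.85 and 12.19 with Vorinostat, 7.93 and 6.6 with BRD4884 and 5.58 and 5.52 with BRD6688. The highest other compound was OICR.24K.Dissimilar_18_P14 at 7.02, within the range of the HDAC libraries, and the set mean was 11.2 ± 5.74 (SD, n = 4) against 3.25 ± 1.54 (n = 22, limma adjusted p = 0.0007098). With the benzenesulfonamides the same exon was lower than with other compounds, at 0.5, 0.83, 1.21 and 0.72 (limma adjusted p = 0.001238), and below all 3 DMSO libraries.

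Myo5a is an actin-based motor that carries organelles and vesicles, and its 75 nt coding exon read 2.6, 1.97 and 1.29 in DMSO, 12.76 and 13.02 with CI-994, and 5.35 to 8.63 in the other 6 HDAC inhibitor libraries. No other compound exceeded the 5.08 of 5-azacytidine, so the HDAC inhibitor libraries did not overlap with the rest (mean 8.06 ± 3.25 against 2.55 ± 1.10, limma adjusted p = 0.00182). Sirt7 is an NAD-dependent deacylase, and its 142 nt partly coding exon showed the same separation, with 7.29 to 18.18 in the 8 HDAC inhibitor libraries and at most 6.32 elsewhere (11.99 ± 2.63 against 3.65 ± 1.51, limma adjusted p = 0.0004319). Tsc2, which with Tsc1 restrains mTORC1, had a 69 nt coding exon at 1.78, 1.67 and 1.43 in DMSO and at 7.19 to 18.29 in the HDAC inhibitor libraries (11.8 ± 1.72 against 4.49 ± 2.35, limma adjusted p = 0.007286), with GNF-5837 at 9.9 and SCH-772984 at 8.45.

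The NMD exon of Akap8l, a nuclear scaffold protein, was at 1.33, 1.13 and 1.05 in DMSO and at 3.11 to 13.87 with HDAC inhibitors (7.43 ± 3.01 against 1.98 ± 1.16, limma adjusted p = 0.002804). Bptf, a subunit of the NURF chromatin remodeller, had a 162 nt coding exon at 18.81 and 19 with Vorinostat, 11.59 and 13.49 with CI-994, 11.04 and 7.26 with BRD4884 and 5.35 and 6.45 with BRD6688, after 3.28, 2.32 and 3.18 in DMSO. T5985871 gave 10.36. Its call (limma adjusted p = 0.0103) was lost without Vorinostat or without CI-994, as was that of a 189 nt coding exon of Plekha5. Calls of the Dst exon (without CI-994 or BRD4884) and of Nsun5 (without Vorinostat) also depended on a compound. Ptgr2 was the exon that was lower with HDAC inhibitors (2.65 against 6.00, limma adjusted p = 0.0144, not called without Vorinostat or BRD4884). Those other compounds include the microexon inhibitors, with which this exon had a mean of 10.7. Of the 19 higher exons, 15 had a length divisible by 3, of 262 among the 611 tested, and 7 were coding, 3 partly coding and 2 NMD only. Among the 611 tested, 91 were coding, 19 partly coding and 103 NMD only.

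Peg3, Gnl3l, Snapc4, Mink1 and Nptn held the named exons that were higher with the benzenesulfonamides. Peg3 is an imprinted zinc finger gene, and its 63 nt NMD exon stood at 1.54, 2.46 and 1.66 in DMSO, 19.9 with BTB12021, 15.89 with RDR00572, 14.49 with S02045 and 8.49 with RH01954. The highest other value was 5.74 with A-443654, so the set did not overlap with the rest (14.7 ± 4.73, n = 4, against 2.39 ± 1.35, n = 22, limma adjusted p = 4.148e-07). Gnl3l, a nucleolar GTPase, had an 84 nt exon (chrX:147436104-147436187, mm9) at 2.19, 0.75 and 1.69 in DMSO and at 11.76, 7.16, 6.98 and 4.94 in the same order of compounds (limma adjusted p = 3.318e-07), above the 2.81 that was the highest other library. Within the set, both exons had their highest value with BTB12021, given at 20 µM, and their lowest with RH01954, at 2.5 µM. RDR00572, also at 2.5 µM, and S02045, at 5 µM, had overlapping 95% Wilson intervals for Peg3 (13.3% to 18.9% and 12.1% to 17.3%). Each compound had 1 library, and the part of dose was not tested.

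Snapc4, a subunit of the complex that activates snRNA genes, had a 119 nt exon at 4.12, 6.06 and 4.74 in DMSO and at 20.36, 13, 13.76 and 11.36 with the benzenesulfonamides (14.6 ± 3.96 against 6.45 ± 1.78, limma adjusted p = 0.0001031), though Vorinostat B reached 12.81. The 87 nt coding exon of Mink1, a Ste20-family kinase, stood at 14.79, 8.29, 15.89 and 18.55 after 5.65, 4.24 and 2.19 in DMSO (limma adjusted p = 0.001567). Here RH01954 gave the highest value of the set, and Vorinostat A stood at 16.47. Neuroplastin, the immunoglobulin-domain adhesion protein encoded by Nptn, has a 348 nt coding exon that read 2.06, 1.81 and 2.07 in DMSO and 10.58, 9.22, 9.03 and 4.73 with the set (8.39 ± 2.54 against 3.33 ± 1.91, limma adjusted p = 0.00541). A-443654 at 9.63 lay within that range, and the call was lost without BTB12021. The largest gain within the set backed by at least 20 reads was that of a 439 nt partly coding exon of Ccdc88c, a girdin-family signalling protein, which read 1.72, 6.45 and 4.62 in DMSO, 26.47 with RDR00572 (43 reads), 20.93 with S02045 (26 reads) and 7.04 with RH01954.

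Ptgr2, Rbm7, Cdc7, Cenph and Smchd1 held the leading exons that were higher with the 5 microexon inhibitors than with other compounds. Ptgr2, a prostaglandin reductase, had the smallest p-value of these. Its 129 nt NMD exon was at 4.01, 3.85 and 4.94 in DMSO, 8.74 with AW00693, 10.12 with T5635931, 11.53 with T5758020, 10.55 with T5963258 and 12.76 with T5985871 (10.7 ± 1.51, n = 5, against 4.31 ± 1.72, n = 22, limma adjusted p = 1.879e-05). SEW06315 at 8.86 was the highest other value. Cenph, a kinetochore protein, had a 93 nt exon at 3.83, 3.79 and 5.16 in DMSO and at 14.58, 10.34, 10.64, 7.32 and 17.39 in the same order of compounds (limma adjusted p = 0.00167).

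Rbm7 (12.5 ± 7.26 against 4.55 ± 1.38, limma adjusted p = 0.00142) and Cdc7 (12.8 ± 7.83 against 2.84 ± 1.43, limma adjusted p = 0.001502) were called with values that were highest with T5985871, and both calls remained without it. Smchd1, a factor of X inactivation, had a 106 nt exon at 2.21, 0.65 and 2.9 in DMSO and at 8.36, 5.5, 10.5, 7.12 and 20.44 with the set (limma adjusted p = 0.002945). An 84 nt coding exon of Mical3, an actin-oxidising monooxygenase, was called (18.8 against 7.60, limma adjusted p = 0.01381) but not without AW00693 or T5985871. Exons lower with the set included those that were higher with the benzenesulfonamides, Peg3 (1.09 against 4.86, limma adjusted p = 0.02267, with 4 of the 5 compounds measured, lost without T5635931 or T5985871) and Gnl3l (0.727 against 2.67, limma adjusted p = 0.04337, with 3 measured). As the sets were compared with each other's compounds among the rest, these values are not independent of the benzenesulfonamide contrast. Among the 61 higher exons, 28 were not matched, 12 were NMD only, 9 were coding and 26 had a length divisible by 3. The same counts over all 555 low-inclusion exons tested were 246, 96, 85 and 241.

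**Figure D5:**
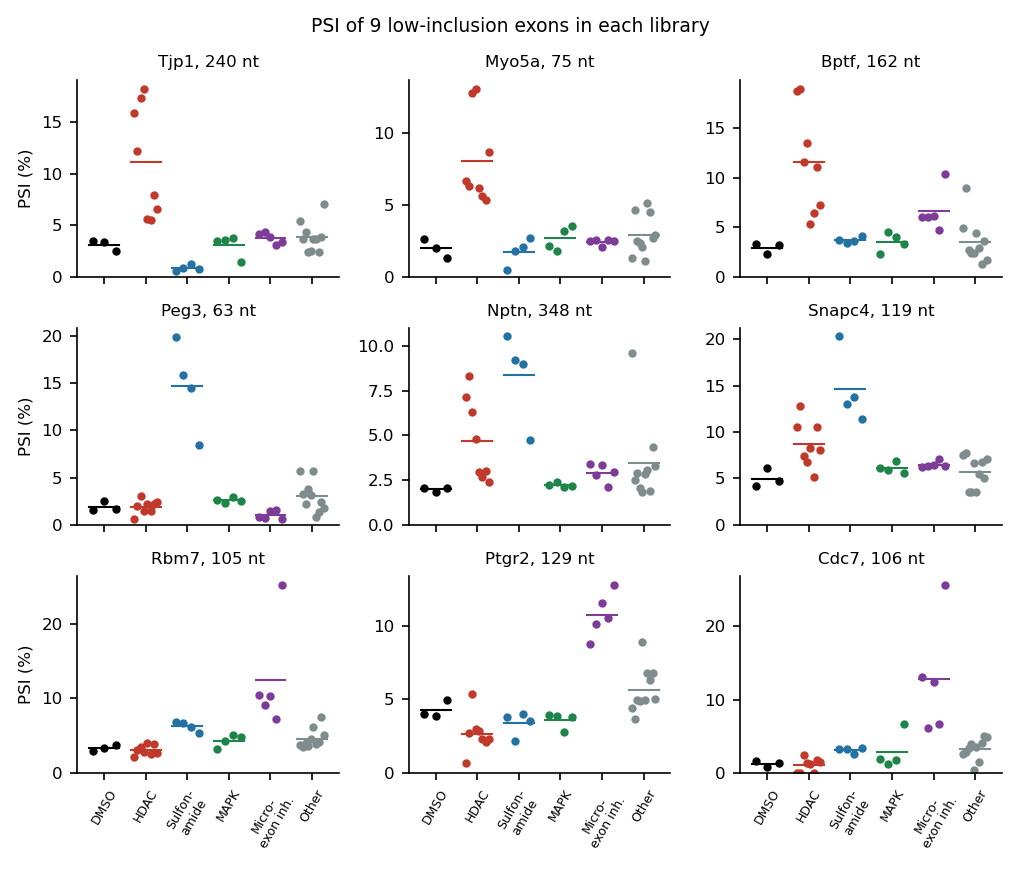
PSI (%, vertical axes) of 9 low-inclusion exons in every covered library, by group, with the group mean as a line. Tjp1, Myo5a and Bptf are highest with HDAC inhibitors, Peg3, Nptn and Snapc4 with benzenesulfonamides, and Rbm7, Ptgr2 and Cdc7 with the 5 microexon inhibitors, among which T5985871 is the highest point.

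The HDAC inhibitors were also compared among themselves, each against the other 3 over 8 libraries. Limma called 0 of 287 low-inclusion exons and 0.0% of 27209 exons in every one of the 4 contrasts. At an unadjusted p below 0.05, 39 exons were higher and 8 lower with Vorinostat, 33 and 5 with CI-994, 7 and 24 with BRD4884 and 5 and 30 with BRD6688. The smallest adjusted p-values came from Vorinostat contrasts of exons in Plekha5, a phosphoinositide-binding protein (18.48 and 21.43 against a mean of 6.92, limma adjusted p = 0.1324), Bptf (18.9 against 9.20, limma adjusted p = 0.2208) and Sipa1l2, a Rap GTPase activator (12.67 and 12.38 against 6.35, limma adjusted p = 0.2242). None passed the threshold, which does not show that the compounds act alike. BRD6688 and BRD4884, both at 10 µM, gave 5.35 and 6.45 against 11.04 and 7.26 for Bptf and 5.58 and 5.52 against 7.93 and 6.6 for Tjp1.

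A few exons stood above their DMSO level with most compounds. The class was chosen for low DMSO values and these exons for high medians over compounds, so that position was partly fixed by the choice. The highest median over the 27 compounds belonged to a 137 nt exon of Dopey1, a gene of endosomal and Golgi trafficking, at 9.88 with a range of 1.2 to 20.19, after 1.14, 1.64 and 2.3 in DMSO. Its reads per library were few, 45 at the highest value, with T5635931. The exons of Mical3 (median 9.21, DMSO 1.64, 1.5 and 7.48), Dst (8.19) and R3hdm1 (7.74, DMSO 5.05, 4.7 and 5.04) and a 601 nt exon of Cklf (7.81, DMSO 3.08, 6.15 and 3.09) followed. For Cklf nearly all compound libraries failed the balance filter. All compounds are set beside the same 3 DMSO libraries, so these values are not independent of one another.

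Gene lists, chosen with earlier results of these data known, were counted over the class. Of 9 exons in SR protein genes 6 were measured and 0 gained, of 10 in hnRNP genes 3 were measured and 1 gained (Hnrnpl), and of 30 in other splicing factor genes 20 were measured and 0 gained, where 114 of 1458 measured exons gained in any compound. Without the balance filter the gained exons of these lists numbered 0, 2 and 0, where 294 of the 3767 exons gained. Among matched exons, 4 of 6, 2 of 3 and 14 of 16 of these lists were NMD only. Between compound sets, an exon of Srsf11 (2.93 against 1.24, limma adjusted p = 0.02566) and one of Cpsf6, a cleavage and polyadenylation factor (3.97 against 1.96, limma adjusted p = 0.01035), were higher with the microexon inhibitors, and one of Sf3b1 was lower (0.718 against 2.12, limma adjusted p = 0.03028). An exon of Srrm2, a scaffold of nuclear speckles, was higher with HDAC inhibitors (6.62 against 3.34, limma adjusted p = 0.01368). It was also higher with the microexon inhibitors (5.61 against 3.42, limma adjusted p = 0.03229). With the benzenesulfonamides it was lower (0.87 against 4.34, limma adjusted p = 0.0001413). Each set is among the other compounds of the other contrasts, so these Srrm2 calls are not independent.

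Of 42 exons in chromatin and DNA methylation genes 15 were measured and 0 gained, and of 38 in DNA damage and cell cycle genes 13 were measured and 1 gained (Mdm4). Without the balance filter 3 of the 42 and 2 of the 38 gained, where 294 of the 3767 exons of the class did. Setd5 was higher with the microexon inhibitors (4.52 against 2.19, limma adjusted p = 0.04258). An exon of the kinase gene Cdk11b was higher with HDAC inhibitors (6.69 against 2.88, limma adjusted p = 0.001668) and lower with benzenesulfonamides (0.703 against 3.87, limma adjusted p = 0.0005694). These Cdk11b calls are not independent, as each set is among the other compounds of the other contrast. Ubiquitin ligase and protease genes held 76 exons, of which 36 were measured and 1 gained (Fbxo8), and exons of the ligase genes Cul3 (5.16 against 1.74, limma adjusted p = 0.008282) and Trim37 (1.70 against 0.726, limma adjusted p = 0.03211) were higher with the microexon inhibitors. Of the 76 exons, 3 gained without the balance filter. In the neuronal adhesion and synapse list 14 of 29 exons were measured, and those of Cacna1b and Snapc4 were among the exons that gained. Snapc4 entered that list through the prefix of its symbol and is a transcription factor subunit, not a synaptic gene. Snap23, which encodes a membrane fusion protein, was lower with benzenesulfonamides (1.77 against 4.04, limma adjusted p = 0.008847).

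The list medians of the set difference were read beside those of all low-inclusion exons tested, and rest on few exons. For the microexon inhibitors, where the class stood at 0.24, they were 1.66 over 2 exons of hnRNP genes, 0.99 over 7 of chromatin genes, 0.18 over 5 of SR protein genes, 0.12 over 10 of other splicing factors and -0.78 over 5 of the neuronal list. For the benzenesulfonamides, with a class median of -0.47, they were -1.16 over the 2 hnRNP exons, -1.03 over 5 exons of the neuronal list and -0.89 over 5 of the DNA damage and cell cycle list. For the MAPK pathway set, with a class median of -0.22, they were -1.29 over the 2 hnRNP exons and 0.998 over 6 of the neuronal list.

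Expression of the genes that host gained exons was read from 1 merged RPKM value per condition and was not tested, and in bulk RNA fewer cells of a type and less RNA per cell cannot be told apart. Hosts were matched for 2488 of the 2754 genes. On the scale of log2(RPKM + 0.5), the 41 matched hosts of exons gained with T5985871 had a median change from DMSO of -0.39, where 814 hosts of measured exons had -0.23 and all genes 0.0. Above 5 RPKM the medians were -0.39, -0.23 and -0.21, so that measured hosts lay close to the other expressed genes. Of these hosts 1 was higher and 7 were lower by more than 2-fold. The hosts named here whose exons gained with T5985871 ranged from Cenph (-1.44) and Alkbh3 (-1.10) through Thap2 (-0.59) and Cdc7 (-0.35) to Rbm7 (0.12). The medians for hosts of gained and of measured exons were -0.36 and -0.04 with A-443654, -0.10 and -0.33 with MK-1775, -0.34 and -0.41 with CI-994 and -0.42 and -0.36 with Vorinostat. With MK-1775, Unc5a stood at 0.10 and Hnrnpl at -0.80, and the exons of both gained inclusion. A lower host level leaves fewer junction reads behind a PSI value, and the part of host expression in the gains was not tested.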

How the data were processed

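The exons and the gene lists were chosen with earlier results of these data known. The authors deposited percent spliced in values (PSI, in percent) from vast-tools on mm9, with a quality string of corrected inclusion and exclusion reads per event and library. RPKM per gene, deposited with replicates merged, came from Salmon (0.10.2 in the submitters' processing notes), and the authors' comparison columns, which hold fold changes and p-values from edgeR, were not used. All value columns were mapped to a sample or group (0 were left out). Doses came from the study's supplementary material.

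Gains were called after the study's methods, with a limit of 10 PSI and one of 0.95 on the probability of a higher PSI, which was taken from beta distributions of the reads (2000 draws per exon and library). Sets were compared by limma (3.58.1, R 4.3.3) on arcsine square root PSI, over exons passing in at least 3 compounds of a set and 18 others, with trend and robust options, two-sided. Calls and fits were tested on simulated data. Named exons were the 12 largest gains backed by at least 20 reads, the strongest called exons of each set (at least 5 PSI higher), the 5 highest medians over compounds among exons covered in all 27, list members that gained, the 3 smallest adjusted p among HDAC inhibitors, and exons at the limits of the rule. Among these, 1 exon is not reported here. Events carry mm9 coordinates and the reference was GRCm38, so exons were matched by gene symbol, exon length and intron lengths and no coordinate was converted. Names of compounds follow the study.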

Additional observations from a re-analysis of the deposited data

How the results depend on the processing

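Alternatives for the balance filter on compound libraries only and for the mean PSI limits in the HDAC comparison were chosen after seeing the data. The median count of gained exons per compound was 4, and it became 1 at 15 PSI, 1 for exons up to 2 PSI in DMSO, 10 without the balance filter, 8 with the filter on compound libraries only, and 4 to 5 when a DMSO library was left out. Without the limit on the posterior probability the median stayed at 4 and the highest count at 47, so that limit changed the counts little. For T5985871 the 47 gained exons became 12 at 15 PSI, 15 up to 2 PSI, 114 without the balance filter, 78 with the filter on compound libraries only, and 53 to 59 without a DMSO library. Leaving 1 out changed both the DMSO mean and how many DMSO libraries had to pass, and their parts were not tested.

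Exons higher with HDAC inhibitors (19) numbered 31 at a mean PSI of 1 to 99, 40 without the balance filter and 8 to 21 with a compound left out, and the lower count (1) became 3 on the log-odds scale, 6, 4 and 0 to 1. For benzenesulfonamides the higher count (18) became 46 without the balance filter and 10 to 14 with a compound left out, and the lower count (40) became 62 at a mean PSI of 1 to 99, 147 and 17 to 32. The MAPK pathway set had 1 exon higher at a mean PSI of 1 to 99 and 0 to 0 with a compound left out. The microexon inhibitor counts (61 higher, 5 lower) became 260 and 14 without the balance filter and 29 to 60 and 2 to 5 with a compound left out. The Vorinostat host median of -0.42 became -0.26 above 5 RPKM. The cause of these moves was not tested. Of 173 alternatives for 24 named calls, 159 stayed past the threshold, 14 did not and 0 reversed.

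Deviations of HDAC inhibitor libraries with the same letter, A or B, were nearly uncorrelated over 50729 exons (-0.023 to 0.023). Most of these exons are included almost always and can vary little, so these correlations cannot exclude a pairing of the libraries. With the letter as a replicate block, limma called 0 exons in each of the 4 contrasts, as without it. The limit of 10 PSI was a choice and not a limit of depth. Depth set the precision of single values, with 95% Wilson intervals of 22.5% to 46.3% from 57 reads (Thap2 with T5985871) and 13.4% to 16.9% from 1539 reads (Hnrnpl with MK-1775).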
